A study of Mus musculus with 6 samples.

Results

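The genes of DNA methylation and of Polycomb repressive complex 2 (PRC2) were examined in mouse uteri at 3.5 dpc, the day before an embryo attaches. The set held 10 genes, *Dnmt1*, *Uhrf1*, *Hells*, *Dnmt3a*, *Dnmt3b*, *Tet1*, *Tet2*, *Tet3*, *Ezh2* and *Suz12*, chosen by name. All 29 probe sets that the array annotation assigns to one of them alone were taken, of 45037 probe sets in all. RNA from whole uteri was hybridised to 6 Affymetrix mouse arrays, 3 for the *Arid1a* f/f genotype and 3 for *Arid1a* d/d. *Arid1a* f/f females carry floxed *Arid1a* alleles without Cre. *Arid1a* d/d females (*Pgr* cre/+ *Arid1a* f/f) carry the same alleles and Cre recombinase made from the *Pgr* locus, which deletes *Arid1a* where PGR is expressed. Uterine cells without PGR keep the gene, and the genotypes also differ at *Pgr*. The females were mated with C57BL/6 males, and their age is not stated in the labels or methods for the arrays. Whether the 3 samples of a genotype are 3 mice is not in the labels. The p-values therefore rest on the spread between samples, which may be technical.

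DNA methylation is copied after each round of replication. UHRF1 binds hemimethylated DNA and brings in DNMT1, the maintenance methyltransferase, and HELLS is a chromatin remodeling helicase that opens nucleosomes to it. DNMT3A and DNMT3B add methyl groups to new sites, and the TET enzymes oxidise methylcytosine, which leads to its removal. EZH2 is the catalytic subunit of PRC2 and SUZ12 a core subunit it needs. PRC2 methylates histone H3 at repressed developmental genes. ARID1A is a subunit of the SWI/SNF remodeling complex, and SWI/SNF and Polycomb are known to oppose each other at many genes.

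The values are normalized intensities on a linear scale, from 1.29 to 4479, with a median of 3.12, and folds were tested on log2 values with limma, adjusted over all probe sets. Each gene was read from its brightest probe set, and a positive log2 fold change is a higher value in *Arid1a* d/d uteri. The table holds no detection calls, so an intensity near the median cannot be told from background. The deleted gene was checked first. *Arid1a* had intensities of 83.6, 86.9 and 103.9 on the *Arid1a* f/f arrays and 51.9, 51.9 and 58.2 on the *Arid1a* d/d arrays (log2 fold change -0.76, standard error 0.12, adjusted p = 0.0120). Whether this probe set lies in the deleted part is not known here. Whole uterus was measured, so more cells of a type and more RNA per cell cannot be told apart.

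Of the 10 genes, 5 were higher in *Arid1a* d/d uteri and 0 lower, with limma's adjusted p under 0.05 as the threshold for a call throughout, and 5 did not pass. At an unadjusted p under 0.05 the counts were 5 and 1. Among all 18193 genes measured, 3.37% were called higher and 4.06% lower. The genes that rose were *Hells*, *Uhrf1*, *Ezh2*, *Dnmt1* and *Suz12*, which are the 3 genes of maintenance methylation and both PRC2 genes. The median log2 fold change was 0.38 over the 10 genes and -0.02 over all genes. Every *Arid1a* d/d array lay above every *Arid1a* f/f array for 5 of the 10 genes and for 13.4% of all genes. The reverse held for 1 of the 10 and for 16% of all genes. The higher genes numbered 1 without *Arid1a* f/f replicate 2, 2 without *Arid1a* f/f replicate 3, and 3 when *Arid1a* d/d replicate 1 or 2 was left out.

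**Figure D1:**
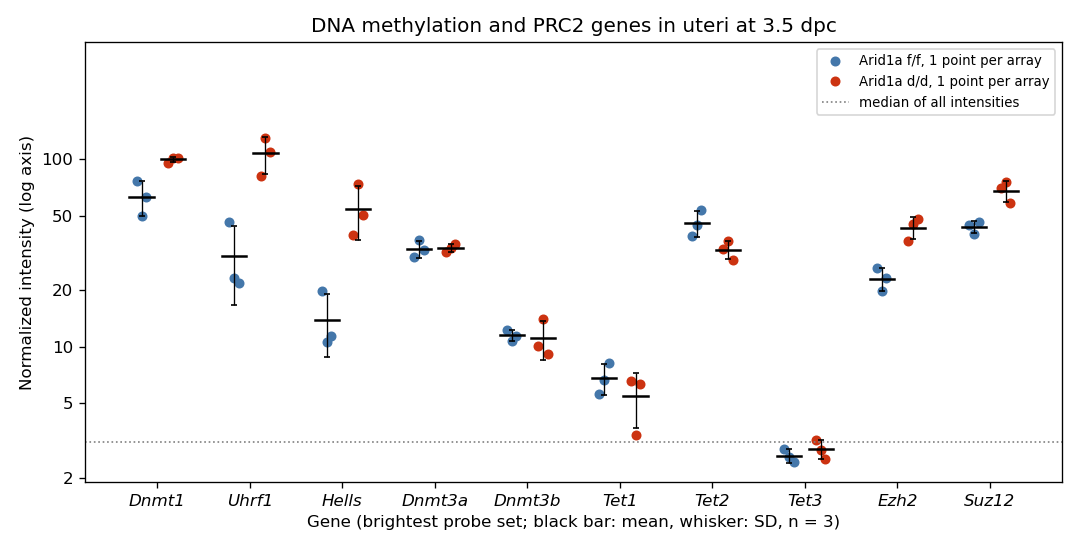
Normalized intensity (vertical, log axis) of the brightest probe set of each of the 10 genes on 3 *Arid1a* f/f arrays (blue) and 3 *Arid1a* d/d arrays (red), 1 point per array, with the mean (bar) and SD (whisker). The red points lie above all blue points for *Dnmt1*, *Uhrf1*, *Hells*, *Ezh2* and *Suz12* and below them for *Tet2*, while *Tet3* lies at the median of all intensities, 3.12 (dotted line).

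The genes of maintenance methylation rose together in *Arid1a* d/d uteri. *Hells* had intensities of 19.9, 10.6 and 11.4 on the *Arid1a* f/f arrays and 39.7, 73.6 and 50.3 on the *Arid1a* d/d arrays. The lowest *Arid1a* d/d array was above the highest *Arid1a* f/f array, and *Arid1a* f/f replicate 1 stood above the other controls. *Hells* was 3.94-fold higher (log2 fold change 1.98, standard error 0.28, adjusted p = 0.00846, limma), and it kept its call whichever of the 6 arrays was left out. Its fold was number 29 from the highest of the 18193 genes.

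*Uhrf1* had intensities of 46.3, 23.2 and 21.9 in *Arid1a* f/f uteri and 81.8, 130.5 and 110.0 in *Arid1a* d/d uteri. As with *Hells*, the genotypes did not overlap, *Arid1a* f/f replicate 1 was the highest control, and *Arid1a* d/d replicate 2 was the highest array. *Uhrf1* was 3.68-fold higher (log2 fold change 1.88, standard error 0.28, adjusted p = 0.0115, limma), at number 35 of all genes. Without *Arid1a* f/f replicate 2 it had 1.73 and an adjusted p of 0.0553 in limma, ending the call.

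*Dnmt1* changed less. Its intensities were 76.2, 49.99 and 63.0 in *Arid1a* f/f uteri and 96.1, 101.6 and 101.7 in *Arid1a* d/d uteri, with close values among the *Arid1a* d/d arrays and a wider spread among the controls. The difference was 1.61-fold (log2 fold change 0.68, standard error 0.15, adjusted p = 0.0377, limma). All 3 probe sets of *Dnmt1* gave nearly the same fold, 0.68, 0.64 and 0.67, and each passed the test. The call on the brightest probe set held in 1 of the 6 fits that left out an array, that without *Arid1a* f/f replicate 1, and the adjusted p in the other 5 ran from 0.0736 to 0.110 in limma. With 8 added to every intensity before the log, *Dnmt1* had 0.62 and an adjusted p of 0.0772.

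Both PRC2 genes rose. *Ezh2*, which has a single probe set here, had intensities of 26.4, 19.8 and 23.2 in *Arid1a* f/f uteri and 36.7, 45.1 and 47.9 in *Arid1a* d/d uteri. The groups did not overlap, and the fold was 1.87 (log2 fold change 0.91, standard error 0.14, adjusted p = 0.0129, limma). The call was lost without *Arid1a* f/f replicate 2, at 0.80 (adjusted p = 0.0545, limma), and also without *Arid1a* f/f replicate 3, at 0.91 (adjusted p = 0.0522, limma).

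*Suz12* had intensities of 44.7, 39.9 and 46.1 in *Arid1a* f/f uteri and 69.9, 75.6 and 58.6 in *Arid1a* d/d uteri, again with no overlap. It was 1.56-fold higher (log2 fold change 0.64, standard error 0.12, adjusted p = 0.0248, limma). The call held in 1 of the 6 fits that left out an array, that without *Arid1a* d/d replicate 3, with an adjusted p of 0.0622 to 0.0997 in the others. It also depended on the choice of probe set, as described with the other probe sets.

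The genes for new methylation gave no call on their brightest probe sets. *Dnmt3a* had intensities of 30.0, 36.9 and 32.8 in *Arid1a* f/f uteri and 31.9, 33.5 and 35.2 in *Arid1a* d/d uteri. The groups overlapped, with a log2 fold change of 0.02 (95% interval -0.23 to 0.27). *Dnmt3b* had 12.3, 10.8 and 11.4 against 10.1, 14.1 and 9.21, also overlapping, with a log2 fold change of -0.07 (95% interval -0.43 to 0.29).

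The TET genes did not pass the test either. *Tet2*, the brightest of their probe sets, had intensities of 39.2, 44.5 and 53.6 in *Arid1a* f/f uteri and 33.2, 36.5 and 29.1 in *Arid1a* d/d uteri. The *Arid1a* d/d arrays were all under the controls, but the value of -0.47 on the log2 scale (standard error 0.14, adjusted p = 0.106, limma) failed the correction. Groups were apart in this direction for 16% of all genes. The second probe set of *Tet2* had -0.45 and its groups overlapped. *Tet1* was dim, with 5.60, 6.67 and 8.19 against 6.58, 3.40 and 6.35, a log2 fold change of -0.37 (95% interval -0.94 to 0.20). *Tet3* had 2.86, 2.57 and 2.43 against 3.18, 2.83 and 2.52, at the level of background, so its fold of 0.11 says little about this gene.

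Over all 29 probe sets, limma called 8 higher and 0 lower, against 2.42% and 2.35% of all probe sets on the arrays, and at an unadjusted p the counts were 13 and 2. The 8 became 2 and 3 without *Arid1a* f/f replicates 2 and 3, and 3 and 5 without *Arid1a* d/d replicates 2 and 3. The 8 were the 3 of *Dnmt1*, 2 of *Hells*, and 1 each of *Uhrf1*, *Ezh2* and *Suz12*. Groups were apart upward for 12 of the 29 and for 11% of all probe sets, and downward for 2 and 11.5%. Probe sets of a gene share its transcripts and are not replicates, and some disagreed. *Hells* had 0.98 on a second probe set, which passed (adjusted p = 0.0171, limma), and 0.11 on a dim one whose intensities, 2.15 to 2.84, were all under the median. *Uhrf1* had 0.74 (adjusted p = 0.103, limma) on its second, dim probe set. Averaged over probe sets, *Hells* had 1.02 and *Uhrf1* 1.31, and both kept their calls. The probe sets of *Dnmt3b*, *Tet1* and *Suz12* not described elsewhere, and the dimmest of *Dnmt3a*, lay between -0.03 and 0.27 with no call.

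*Dnmt3a* has 5 probe sets. The 2 brightest, 1423063_at and 1460324_at, had 0.02 and 0.05. Another pair gave larger values, with intensities of 10.5, 12.6 and 7.45 against 18.5, 17.4 and 14.2 on 1423066_at and of 12.2, 9.41 and 5.42 against 17.96, 14.4 and 12.3 on 1423065_at. Their genotypes did not overlap, and their log2 fold changes were 0.74 (adjusted p = 0.0674, limma) and 0.78 (adjusted p = 0.158, limma). Averaged over probe sets, *Dnmt3a* had 0.37 (adjusted p = 0.0780, limma).

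*Suz12* has 6 probe sets, which fell on both sides of 0. Besides the brightest, 1427253_s_at had 0.74 (adjusted p = 0.0633, limma) and 1452364_at 0.57 (adjusted p = 0.190, limma). In contrast, 1420020_at had 7.17, 6.99 and 7.65 in *Arid1a* f/f uteri against 6.79, 5.26 and 6.13 in *Arid1a* d/d uteri, or -0.27 on the log2 scale with no overlap (adjusted p = 0.264, limma). Averaged over probe sets, *Suz12* had 0.30 (adjusted p = 0.175, limma), and with probe sets of the _s_at and _x_at kinds left out it had 0.57 (adjusted p = 0.190, limma), so that neither kept the call.

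The change differed within a gene by 0.72 between 1423066_at and 1423063_at of *Dnmt3a*, by 0.91 between 1420021_s_at and 1420020_at of *Suz12*, and by 1.00 between 1417541_at and 1430139_at of *Hells*. In each of these 3 pairs the within-array differences of the genotypes did not overlap (exact permutation p = 0.1, two-sided, adjusted p = 0.1, the smallest that 3 against 3 arrays allow). The pairs were chosen after their values were seen. Which transcripts each probe set detects was not examined here.

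**Figure D2:**
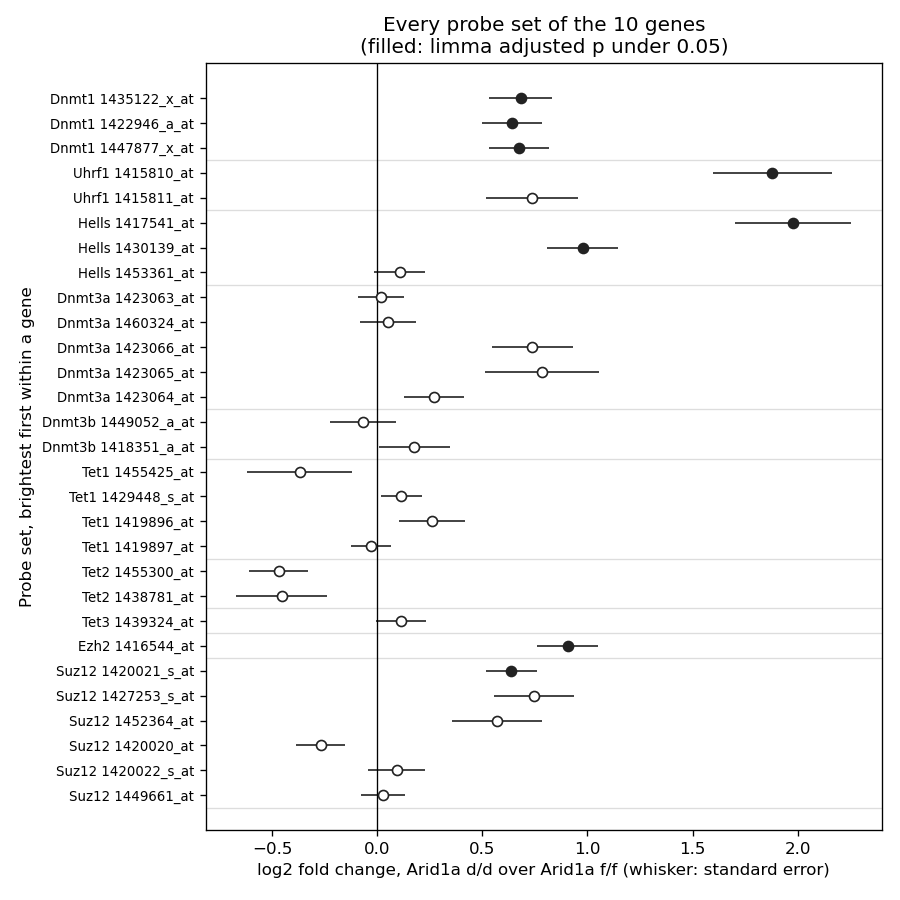
Log2 fold change, *Arid1a* d/d over *Arid1a* f/f (horizontal, whisker: standard error), of each of the 29 probe sets, grouped by gene with the brightest first, and filled where limma made a call. All 3 probe sets of *Dnmt1* lie near 0.68, while those of *Dnmt3a* and *Suz12* spread from near or below 0 to above 0.7.

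Promoter sequences of the 10 genes were read to see what the rising genes share in sequence. E2F factors, which drive transcription at the entry to S phase, bind the letters TTTCCCGC, TTTCGCGC, TTTGCCGC or TTTGGCGC, and these were searched on both strands in windows of 300 bases, from 250 before to 50 after each start listed by RefSeq (build GRCm38.p6). All 10 genes matched, with 15 windows. Of the 10 genes, 5 had a window with such letters, and they were *Hells*, *Uhrf1*, *Ezh2*, *Dnmt1* and *Suz12*, the genes that rose. *Dnmt3a*, *Dnmt3b*, *Tet1*, *Tet2* and *Tet3* had none. In the whole table these letters are in 704 of 27025 genes (2.6%) and in 2.26% of 32851 windows, against 5 of the 15 windows here. They are not particular to these genes, being in 7 of 20 proliferation genes (35.0%), 2 of 17 germ cell genes (11.8%) and 2 of 18 imprinted genes (11.1%) with a window. Each of the E2F letter strings contains CG. The windows here with a match held 31 to 41 CG, against a median of 7 over all windows, so the shares above do not compare like promoters. Windows here without a match held 2 to 57 CG. The motif was chosen with the direction of these genes known, so the match is a description. It does not show that a factor binds there.

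The upstream sequence is shown whole for *Hells* and *Suz12*, which each have 1 listed start, and as 30 bases around the match for *Dnmt1*, *Uhrf1* and *Ezh2*, whose matches lie past a listed start. *Tet2* is shown for contrast, as a gene with no match. Sequences run 5′ to 3′ on the strand of the gene, and capitals mark the E2F letters.
Hells, chr19:38930740-38930989, + strand: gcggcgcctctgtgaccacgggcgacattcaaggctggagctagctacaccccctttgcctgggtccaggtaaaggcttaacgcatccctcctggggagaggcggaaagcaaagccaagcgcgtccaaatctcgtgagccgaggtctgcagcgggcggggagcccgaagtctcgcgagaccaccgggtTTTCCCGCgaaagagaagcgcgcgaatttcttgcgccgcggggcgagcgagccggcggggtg
Suz12, chr11:79992856-79993105, + strand: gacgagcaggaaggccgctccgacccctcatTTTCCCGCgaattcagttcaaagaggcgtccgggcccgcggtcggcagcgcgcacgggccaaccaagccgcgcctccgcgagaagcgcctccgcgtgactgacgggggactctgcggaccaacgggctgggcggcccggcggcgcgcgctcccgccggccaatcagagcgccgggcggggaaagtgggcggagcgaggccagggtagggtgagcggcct
Dnmt1, chr9:20952824-20952853, - strand: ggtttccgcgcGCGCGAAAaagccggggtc
Uhrf1, chr17:56304117-56304146, + strand: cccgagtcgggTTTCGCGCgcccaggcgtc
Ezh2, chr6:47595009-47595038, - strand: gggttgctgcgTTTGGCGCtcggtccggtc
Tet2, chr3:133544391-133544640, - strand: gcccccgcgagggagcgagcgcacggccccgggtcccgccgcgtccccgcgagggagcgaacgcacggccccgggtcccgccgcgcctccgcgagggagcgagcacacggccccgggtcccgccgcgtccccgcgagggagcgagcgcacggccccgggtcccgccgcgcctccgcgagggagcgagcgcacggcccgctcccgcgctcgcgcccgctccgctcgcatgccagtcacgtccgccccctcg

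*Hells* and *Suz12* carry the same letters, TTTCCCGC, at 62 and 219 bases before the start. *Ezh2* carries TTTGGCGC starting 3 bases after its start. *Dnmt1* has 3 listed starts, and its match shown, 219 bases before start 3, lies downstream of another listed start, while a further TTTGGCGC lies 33 bases after that start. *Uhrf1* has its match 185 bases before start 2 of 2. No match overlapped a CCAAT box, the letters CCAAT on either strand, which 7 of the 15 windows and 37.4% of all windows hold.

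**Figure D3:**
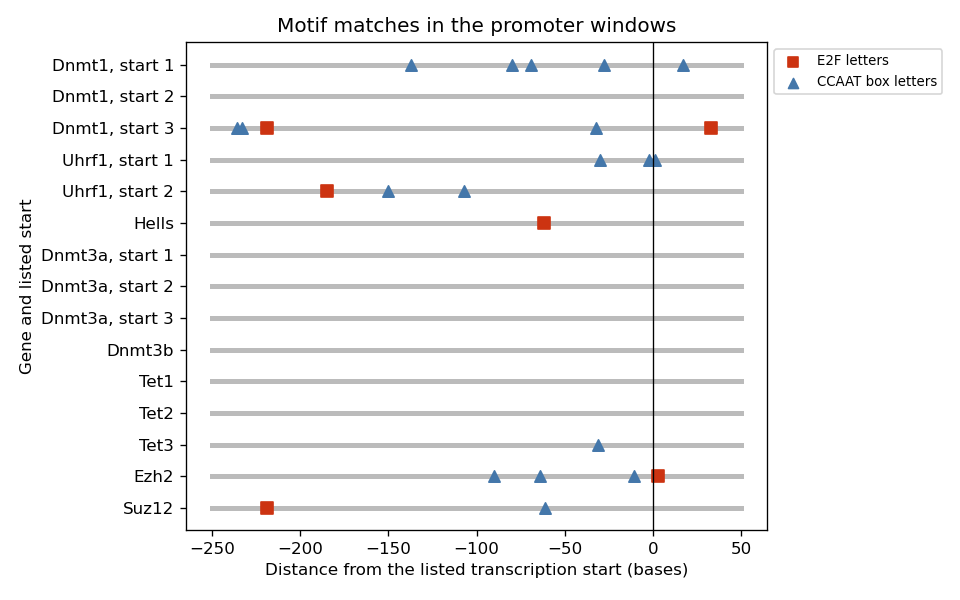
Position of motif matches (horizontal, bases from the listed start at 0) in the 15 promoter windows of the 10 genes, with squares for E2F letters and triangles for CCAAT boxes. Squares occur in windows of *Dnmt1*, *Uhrf1*, *Hells*, *Ezh2* and *Suz12* and in none of *Dnmt3a*, *Dnmt3b*, *Tet1*, *Tet2* or *Tet3*.

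Transcripts of maintenance methylation and PRC2 are known to be more abundant in cycling cells, so genes of proliferation were read on the same arrays. Of 25 such genes, limma called 18 higher and 0 lower (25 and 0 unadjusted), and their median was 0.98 on the log2 scale. *Ccne2*, *Cdc6*, *Mcm5* and *Rrm2* had the largest folds, 1.64, 1.59, 1.36 and 1.23. The summed intensity of the 25 genes was 1738, 1123 and 1184 on the *Arid1a* f/f arrays and 2133, 2667 and 2541 on the *Arid1a* d/d arrays. *Arid1a* f/f replicate 1 was thus the highest control here too, as it was for *Hells*, *Uhrf1*, *Dnmt1* and *Ezh2*. The higher genes of this list numbered 1 and 3 without *Arid1a* f/f replicates 2 and 3, and 7 and 6 without *Arid1a* d/d replicates 2 and 3.

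On brightest probe sets, *Hells* and *Uhrf1* had a larger fold than any of the 25 proliferation genes, whereas 15 of the 25 had a larger fold than *Ezh2*, and 21 a larger one than *Dnmt1* and than *Suz12*. *Hells* had 0.98 on its other called probe set and 1.02 averaged over probe sets, its dim one included, and *Uhrf1* had 1.31 averaged. These values lie below those of *Ccne2*, *Cdc6* and *Mcm5*, which were read on brightest probe sets only. The measures are thus unlike, and the order with probe sets averaged for every gene was not examined. Taken relative to the mean log2 value of the list on each array, *Hells* stood at -0.07 to 0.14 in *Arid1a* f/f uteri and 0.81 to 1.34 in *Arid1a* d/d uteri, a difference of 1.01 (exact permutation p = 0.1, two-sided, adjusted p = 0.143). *Uhrf1* stood at -0.22 to 0.27 and 0.75 to 1.07, a difference of 0.91 (exact permutation p = 0.1, adjusted p = 0.143). The list itself changed by 0.97, so the difference for *Hells* was found on 1417541_at, while its 0.98 on 1430139_at was close to the change of the list. For the other rising genes the genotypes overlapped on this scale. *Ezh2* had a difference of -0.07 (exact permutation p = 0.6, adjusted p = 0.6), *Dnmt1* one of -0.29 (exact permutation p = 0.2, adjusted p = 0.25) and *Suz12* one of -0.34 (exact permutation p = 0.3, adjusted p = 0.333). This comparison was chosen after the values were seen, covered the 10 genes, and cannot give a p under 0.1 with 3 against 3 arrays.

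**Figure D4:**
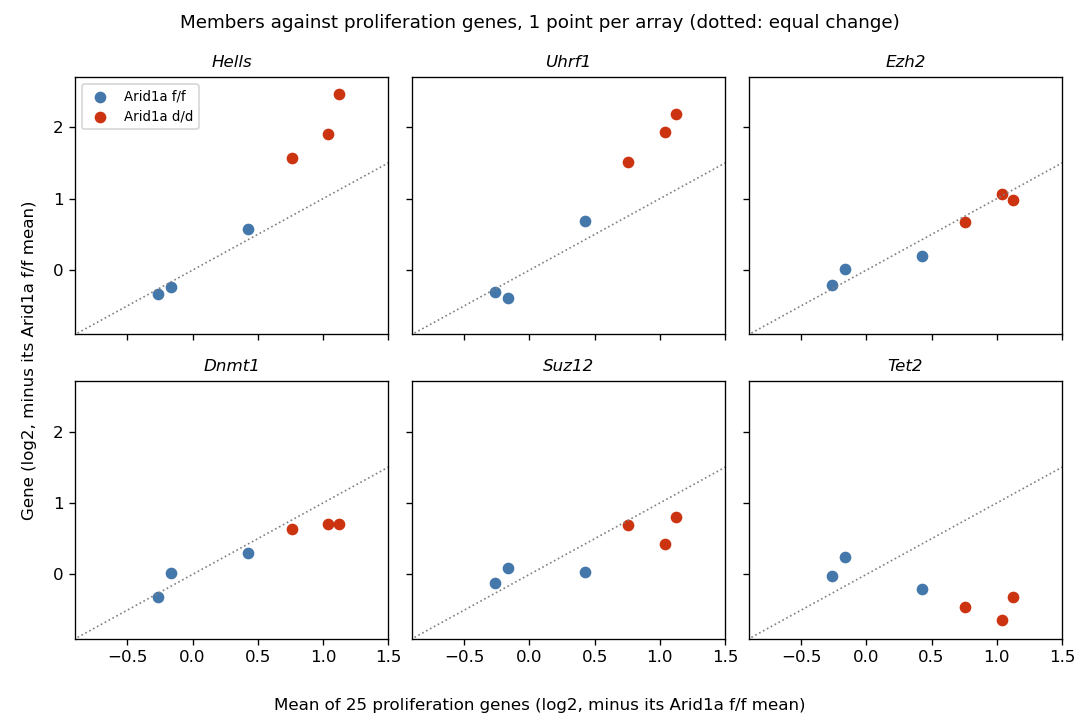
Each panel sets a gene's brightest probe set (vertical) against the mean of 25 proliferation genes (horizontal), both in log2 minus their *Arid1a* f/f mean, with 1 point per array and a dotted line of equal change. The 3 *Arid1a* d/d arrays lie above the line for *Hells* and *Uhrf1*, near it for *Ezh2*, and far below it for *Tet2*.

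Cell type markers in the same RNA also moved. Of 14 epithelial markers, limma called 2 higher and 0 lower (9 and 0 unadjusted), against 3.37% and 4.06% of all genes. Their median was 0.68 on the log2 scale, and their summed intensity was 1213 to 1295 in *Arid1a* f/f and 1285 to 2539 in *Arid1a* d/d uteri. *Arid1a* d/d replicate 2, highest for *Hells*, *Uhrf1* and *Suz12*, was also the highest here, at 2539. *Dnmt1* and *Ezh2* were highest on *Arid1a* d/d replicate 3, at 101.7 and 47.9. *Arid1a* d/d replicate 1, at 1285, lay within the range of the controls here. Its values for each of the rising genes lay above all controls. Of 12 endothelial markers, 0 were higher and 11 lower (0 and 11 unadjusted), with sums of 537 to 548 and 231 to 280. Stromal markers numbered 0 higher and 2 lower of 12 (0 and 6 unadjusted), with sums of 10781 to 12025 and 8412 to 9997. Smooth muscle markers numbered 0 and 1 of 12 (0 and 4 unadjusted), with sums of 8212 to 9410 and 7346 to 8971. Leukocyte markers numbered 0 and 2 of 11 (1 and 4 unadjusted), with sums of 276 to 369 and 198 to 237. No epithelial, stromal, smooth muscle or endothelial marker lay under the median intensity on all 6 arrays. The part of these shifts in the change of the 10 genes was not tested. Of 8 reference genes, 0 were higher or lower in limma, adjusted or unadjusted, with *Pgk1* at 0.27 and *Hprt* at 0.25.

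Partners of these genes were also read, and their shares of calls lay near the 3.37% higher among all genes. Of 24 other measured genes of DNA methylation, limma called 1 higher and 0 lower (4 and 1 unadjusted), and the median was 0.08 on the log2 scale. The gene that rose was *Cdca7*, which encodes the partner through which HELLS is brought to nucleosomes. It had 49.4, 40.6 and 51.7 in *Arid1a* f/f uteri against 67.5, 72.1 and 76.6 in *Arid1a* d/d uteri, or 0.62 on the log2 scale (standard error 0.12, adjusted p = 0.0255, limma). Except for the fit without *Arid1a* d/d replicate 1, leaving out any array brought this list to 0 higher genes.

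Of 31 other Polycomb genes, limma called 1 higher and 0 lower (3 and 3 unadjusted), around a median of 0.05. *Pcgf6*, a subunit of a variant PRC1 complex, was the one that rose, from 40.3, 35.7 and 39.3 to 49.6, 55.7 and 63.4 (log2 fold change 0.54, standard error 0.12, adjusted p = 0.0363, limma). This list, too, had 0 higher genes in 5 of the 6 fits without an array, those other than without *Arid1a* d/d replicate 1, and 0 with the mean of probe sets. *Eed*, which encodes another core subunit of PRC2 and is named here after its value was seen, had 43.6, 48.2 and 53.2 against 59.4, 78.8 and 64.3. Its groups did not overlap, but its change of 0.48 on the log2 scale did not pass (adjusted p = 0.0849, limma).

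Paralogs of the rising genes were compared with them on the same arrays. *Ezh1*, which can replace *Ezh2* in PRC2 and is typical of resting cells, had 43.9, 44.9 and 47.9 in *Arid1a* f/f uteri and 34.5, 37.1 and 35.5 in *Arid1a* d/d uteri. All *Arid1a* d/d arrays were lower, by -0.35 on the log2 scale, short of the threshold (adjusted p = 0.0753, limma). The changes of *Ezh2* and *Ezh1* differed by 1.26 (standard error 0.17). For *Uhrf1* and *Uhrf2* they differed by 1.899 (standard error 0.42), *Uhrf2* itself being at -0.02. In both pairs the genotypes did not overlap in the within-array difference (exact permutation p = 0.1, two-sided, adjusted p = 0.15 over 3 pairs). The changes of *Dnmt3a* and *Dnmt3b* differed by 0.08 (exact permutation p = 0.8, adjusted p = 0.8). A p of 0.1 is the smallest that 3 against 3 arrays can give. With probe sets averaged, the differences were 1.03, 1.26 and 0.32 for these 3 pairs (exact permutation p = 0.1, 0.1 and 0.3, adjusted p = 0.15, 0.15 and 0.3), and *Ezh1* was at -0.12.

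Genes known to be silenced by these systems were also read. Of 19 germ cell genes that promoter methylation silences in somatic cells, limma called 0 higher or lower (0 and 3 unadjusted), and 18 lay under the median intensity on all 6 arrays. The largest changes were -0.49 for *Sycp2* and -0.28 for *Sycp1*, both of the meiotic synaptonemal complex. Their intensities, 1.74 to 3.15 and 1.65 to 2.74, were at background level. Of 18 developmental regulators that Polycomb holds silent outside their lineage, 0 were higher or lower (1 and 0 unadjusted), with 13 under the median on all arrays. *Dlx5* had 15.9, 21.2 and 24.9 against 26.6, 49.5 and 35.2, at 0.82 on the log2 scale with no overlap (adjusted p = 0.0909, limma), and *Neurog1* had 0.20 at background level. The *Arid1a* f/f mean of *Dlx5*, 20.7, was well above the median of all intensities, so *Dlx5* was not silent in the controls.

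Of 23 imprinted genes, limma called 0 higher and 3 lower (0 and 4 unadjusted), against 3.37% and 4.06% of all genes. Their median was -0.10 on the log2 scale. *H19* and *Zrsr1* were on the list of 25 but had no probe set naming them alone, so these counts leave them out. The study lists *H19* among its genes lower in *Arid1a* d/d uteri. *Meg3*, a maternally expressed long non-coding RNA, fell from 127.0, 144.8 and 143.7 to 77.0, 86.2 and 77.8 (log2 fold change -0.79, standard error 0.10, adjusted p = 0.00678, limma). *Cdkn1c*, a CDK inhibitor gene, fell 1.55-fold (log2 fold change -0.63, adjusted p = 0.0331, limma). *Dcn*, which is also a stromal marker and whose imprinting is known from the placenta, fell by 1.06 on the log2 scale. Leaving out replicate 2 of either genotype brought the lower genes to 1. Methylation of DNA or histones was not measured.

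**Figure D5:**
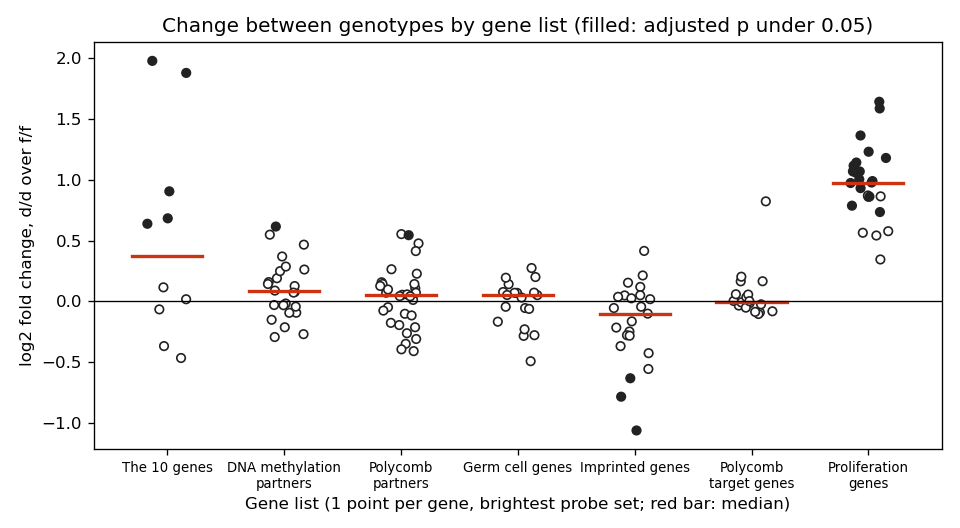
Log2 fold change, *Arid1a* d/d over *Arid1a* f/f (vertical), of the 10 genes and of 6 gene lists, with 1 point per gene, filled where limma made a call, and a red bar at the median. The median is 0.38 for the 10 genes, 0.98 for proliferation genes, and between -0.10 and 0.08 for the other lists.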

How the data were processed

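Per the study's methods, the authors used RMA with global scaling to a fixed trimmed mean target. They chose array genes by fold change filters. Their general statistics section, not the array methods, names Student's t-test, which is called the methods' t-test here. The deposited table holds normalized intensity on a linear scale, 1 column per sample. How it was rescaled and a version of RMA are not given in the sources used here. Its log2 was analysed, dim probe sets included. The platform annotation gives 1 gene to 34945 probe sets, several to 932 (left unnamed) and no entry to 9160. A gene was read from the probe set with the highest mean log2 value. The genotypes were tested with lmFit and eBayes of limma 3.58.1 (R 4.3.3), two-sided, with Benjamini-Hochberg adjustment over 45037 probe sets, and the code was checked on simulated data. Single differences were tested by exact permutation of the arrays. Promoters came from RefSeq, build GRCm38.p6. The 10 genes, the lists, the motifs and the tests were chosen with earlier results of these data known. Named were the 10 genes, *Arid1a*, the paralogs, and per list the largest changes that passed (at most 4 in each direction) or, where none passed, the 2 largest. Within a genotype, log2 values of 2 arrays correlated at 0.990 to 0.992, and no columns were identical. Alternatives covered normalization, an offset, the choice of probe set, the methods' t-test, the replicate block and each array left out. The number of arrays limits the precision.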

Additional observations from a re-analysis of the deposited data

How the results depend on the processing

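Across 170 alternative fits of the 10 genes' folds, 144 kept direction and side of the threshold, 21 lost the call, 1 gained it and 4 changed direction. Of 17 fits each, *Suz12* lost its call in 8, *Dnmt1* in 7, *Ezh2* in 3, *Uhrf1* in 2 and *Hells* in 1. The other genes had no call to lose, which raises the number kept. The gain was *Tet2* at an unadjusted p of 0.0445 in the methods' t-test. No call of the 10 genes changed under quantile normalization, median centring, array weights, trend and robust options or without the dimmest probe sets. Same-numbered arrays of the 2 genotypes correlated at -0.0036, 0.047 and 0.14 in their deviations, and the other pairs at -0.12 to 0.065. Whether the replicate numbers mark a pairing or batch is not in the labels. These correlations, from 3 arrays per genotype, cannot decide it. With the replicate number as a block, the higher genes of the 10 numbered 5, the higher Polycomb partners 0 and the higher developmental regulators 1. The methods' t-test gave, after Benjamini-Hochberg, 0 higher members, member probe sets, methylation partners, Polycomb partners and proliferation genes, 0 lower imprinted genes, and 0 higher and 0 lower of all probe sets. At an unadjusted p it gave 3386 higher and 3316 lower of all, 1 member (*Tet2*) and 1 member probe set lower, 4 higher and 2 lower methylation partners, and 2 higher and 3 lower Polycomb partners. With 8 added before the log there were 5 higher member probe sets, 5 higher proliferation genes, 0 higher and 1 lower Polycomb partners, 1 lower imprinted gene and 687 lower of all. Trend and robust options gave 2 higher methylation partners, and the mean of probe sets 0 higher and 1 lower Polycomb partners.

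Leaving out each array in turn gave 1 to 4 higher of the 10 genes, 2 to 7 higher member probe sets, 0 to 1 higher methylation partners, 0 to 1 higher Polycomb partners, 1 to 23 higher proliferation genes, 1 to 3 lower imprinted genes, and 241 to 941 higher and 337 to 878 lower of all probe sets. In each of these the count without *Arid1a* f/f replicate 2 was the lowest or tied with it. The changes of direction were of folds near 0. *Dnmt3b* had 0.055 as the mean of probe sets. With each array left out, *Dnmt3a* ran from -0.055 to 0.095 on 1423063_at and from -0.080 to 0.14 on 1460324_at, *Dnmt3b* from -0.25 to 0.059 on its brightest probe set, *Tet1* from -0.062 to 0.012 on 1419897_at, *Suz12* from -0.011 to 0.19 on 1420022_s_at and from -0.033 to 0.10 on 1449661_at, and *Hells* from -0.011 to 0.19 on 1453361_at. The cause was not tested.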
